A study of Mus musculus with 2 samples.

Results

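The later steps of mitochondrial fatty acid β-oxidation and the electron transfer flavoprotein (ETF) were followed through 10 genes, Hadha, Hadhb, Hadh, Echs1, Acaa2, Eci1, Decr1, Etfa, Etfb and Etfdh. They were taken by symbol from the 22882 symbol entries of the deposited expression tables, with no filter on their values, and each stood on 1 row of its own. The list of genes was chosen with earlier results of these data known. The RNA-seq experiment compared the hearts of Med1fl/fl mice (control) with those of csMed1-/- mice, in which Med1, a subunit of the Mediator complex, is deleted in cardiomyocytes by a Cre recombinase under the α-myosin heavy chain promoter. All mice were 23 days old, of mixed sex and on the C57BL6/J background, received no treatment, and carried the floxed Med1 allele in both groups. Heart RNA of 5 mice per genotype was pooled into 1 library, so there are 2 libraries, no replicates and no test of any difference, and the variation between mice or pools cannot be estimated. The deletion does not extend to the other cells of the heart, whose RNA is in the same pools.

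Expression was measured as FPKM, by its usual definition fragments per kilobase of transcript scaled to the mapped fragments of the library. The unit corrects for transcript length and so allows levels of different genes to be set side by side. How these libraries were scaled is not known. A gene is described as lower or higher only as the csMed1-/- to control ratio of FPKM, and was counted when this ratio passed 2-fold. Of all symbols, 10489 were above 0 in each library and reached 1 FPKM in at least one, all 10 members among them. Med1 itself was at 3.38 FPKM in the control and 0.412 FPKM in the csMed1-/- library. The number of reads is unknown, but, had FPKM been scaled to mapped fragments alone, the spacing of the lowest values would make the csMed1-/- library the deeper by a factor of 1.38.

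Long-chain fatty acids are the main fuel of the adult heart. In the mitochondrial matrix an acyl-CoA is first oxidised by an acyl-CoA dehydrogenase, and the product is then hydrated, oxidised again and cleaved by a thiolase, which releases acetyl-CoA and a shortened acyl-CoA for the next round. Membrane-bound mitochondrial trifunctional protein, made of the Hadha and Hadhb products, carries out these later steps on long chains, and the soluble enzymes encoded by Echs1, Hadh and Acaa2 carry them out on shorter chains. Eci1 and Decr1 encode the isomerase and the reductase that bring unsaturated acyl-CoA into the same spiral. The acyl-CoA dehydrogenases pass their electrons to ETF, the heterodimer of the Etfa and Etfb products, and ETF dehydrogenase, encoded by Etfdh, hands them on to ubiquinone in the respiratory chain.

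The set of RefSeq (GRCm38.p6) promoters used here held sequences of 8 of the 10 genes and had no entry for Acaa2 or Decr1. The sequences of Eci1 and Hadh are not printed. For the others, the 250 bases before the RefSeq start are given as 5 sequences. These cover the shared Hadha and Hadhb promoter, Echs1, and the 3 genes of the ETF system. Each is written 5′ to 3′ on the strand of its gene, and capitals mark the matches to the motifs searched, on either strand.
Hadhb promoter, chr5:30155003-30155252, plus strand: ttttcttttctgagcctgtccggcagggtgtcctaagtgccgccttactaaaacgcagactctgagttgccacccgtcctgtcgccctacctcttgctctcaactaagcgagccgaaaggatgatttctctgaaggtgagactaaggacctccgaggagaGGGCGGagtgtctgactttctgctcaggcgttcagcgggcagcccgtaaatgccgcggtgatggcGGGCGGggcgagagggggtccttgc
Echs1 promoter, chr7:140116422-140116671, minus strand: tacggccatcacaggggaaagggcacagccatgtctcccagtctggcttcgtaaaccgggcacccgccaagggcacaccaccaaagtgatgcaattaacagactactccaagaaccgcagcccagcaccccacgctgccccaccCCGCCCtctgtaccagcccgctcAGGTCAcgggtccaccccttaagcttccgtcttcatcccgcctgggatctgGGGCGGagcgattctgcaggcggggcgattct
Etfa promoter, chr9:55512244-55512493, minus strand: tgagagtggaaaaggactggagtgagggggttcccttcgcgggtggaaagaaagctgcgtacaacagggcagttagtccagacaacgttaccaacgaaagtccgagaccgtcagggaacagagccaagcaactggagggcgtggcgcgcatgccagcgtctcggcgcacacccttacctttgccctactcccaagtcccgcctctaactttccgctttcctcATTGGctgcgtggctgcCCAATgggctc
Etfb promoter, chr7:43443822-43444071, plus strand: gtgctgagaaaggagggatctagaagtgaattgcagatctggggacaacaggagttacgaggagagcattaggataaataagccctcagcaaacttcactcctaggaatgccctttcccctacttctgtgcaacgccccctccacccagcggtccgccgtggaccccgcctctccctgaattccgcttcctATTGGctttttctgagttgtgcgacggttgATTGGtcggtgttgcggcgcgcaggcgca
Etfdh promoter, chr3:79628768-79629017, minus strand: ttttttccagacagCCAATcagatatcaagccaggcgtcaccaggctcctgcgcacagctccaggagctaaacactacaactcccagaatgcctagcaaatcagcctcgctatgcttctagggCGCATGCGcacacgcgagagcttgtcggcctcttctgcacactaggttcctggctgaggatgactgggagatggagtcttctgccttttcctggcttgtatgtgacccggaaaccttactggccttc

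Hadha and Hadhb stand head to head on chromosome 5. Their RefSeq starts are separated by 272 bases, and the 250-base windows before them overlap in 228 bases, so the Hadhb sequence above holds most of the Hadha promoter as well. The GC box GGGCGG, a known contact of Sp1 family factors, was found before 5 of the 8 members with a sequence (Echs1, Eci1, Hadh, Hadha and Hadhb) and in 32.7% of all 32817 promoters of the table. One of the Hadhb matches and the single Hadha match are the same site. The CCAAT box was found before 4 of the 8 (Etfa, Etfb, Etfdh and Hadh), against 33.8% of all promoters. Etfa and Etfb each held 2 copies, and 10.1% of all promoters held 2 or more.

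The core nuclear receptor motif AGGTCA occurred in 1 of the 8 promoters, that of Echs1, and in 4604 of the 32817. The longer estrogen-related receptor site TCAAGGTCA, which contains it, occurred in none of the 8 and in 0.387% of all promoters. CGCATGCG, the core of the nuclear respiratory factor 1 site, was found in the Etfdh window alone among the 8 and in 1.54% of all promoters. RefSeq and the GENCODE annotation used below do not always place a start alike. The Etfdh window ends at 79629017, while the GENCODE gene, on the minus strand, runs to 79629500, so the whole window lies inside it. The windows of Hadha, Hadhb, Echs1 and Eci1 overlap their GENCODE genes in part. None of the 8 held TATAAA, which 12.4% of all promoters held. The member promoters held 8 to 17 CpG dinucleotides in 250 bases with a median of 14.5, where the median of all promoters was 6. These letters describe the sequence in the windows and were not set against the expression values.

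All 10 genes had a lower FPKM in the csMed1-/- than in the control library, and 9 of them were lower by more than 2-fold. Among all genes tested 18% were lower by more than 2-fold, and 13.6% were higher. Most members are abundant, and among the 1020 genes with a mean of 100 FPKM or more, 17.2% were lower and 17.3% were higher past the same threshold. The median log2 ratio of the 10 genes was -1.91, beside -0.07 for all genes tested and 0.11 for the abundant ones. The member outside the 9 was Decr1. Together the 10 genes summed to 6939 FPKM in the control and 1942 FPKM in the csMed1-/- library, which was 0.889% and 0.271% of the summed FPKM of each library. The control total holds 0 for the muscle gene Actc1 and for the row of Myh6 and Myh7. These were at 9189 and 647 FPKM in the csMed1-/- library, so the 2 totals are not fully alike. In RNA of whole hearts, fewer cells of a type and less RNA per cell cannot be told apart.

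**Figure D1:**
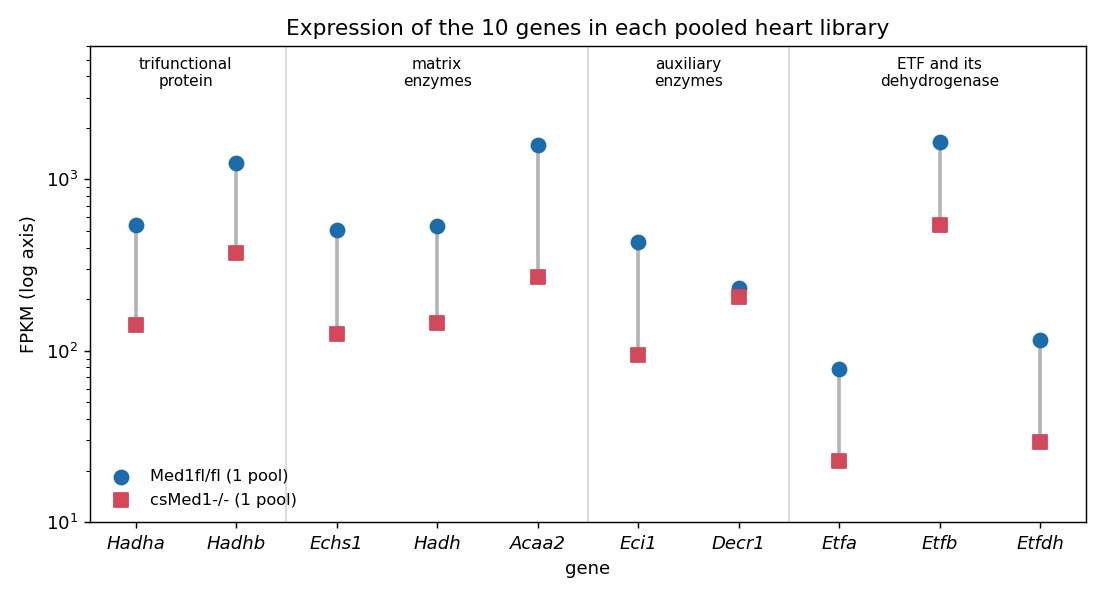
FPKM (log axis) of the 10 genes in the control library (circles) and the csMed1-/- library (squares), 1 pooled library each, ordered by the role of the encoded protein. The points of Decr1 lie close together at 233 and 205 FPKM, while those of the 9 other genes are 3.07-fold (Etfb) to 5.93-fold (Acaa2) apart.

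The subunits of mitochondrial trifunctional protein were lower to a similar degree. Hadha encodes the α subunit, which holds the hydratase and hydroxyacyl-CoA dehydrogenase activities, and lies on chromosome 5 (minus strand, 30118304 to 30155162) in the GENCODE M21 annotation of GRCm38, with 20 exons in its reference transcript. It was at 540 FPKM in the control and 141 FPKM in the csMed1-/- library, a 3.83-fold difference. Hadhb, from 30155248 to 30184593 on the plus strand with 16 exons, encodes the thiolase subunit. It was at 1254 FPKM in the control and 373 FPKM in the csMed1-/- library, 3.37-fold lower. The ratio of Hadha to Hadhb FPKM, which does not depend on how the libraries were scaled, was 0.430 in control and 0.378 in csMed1-/- heart. The β subunit transcript was thus the more abundant of the pair in each library.

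Of the 50-base windows of the Hadhb reference transcript, the length of the sequenced reads, 62.4% also occur without a mismatch in Gm13910 or Gm9108, which GENCODE annotates as processed pseudogenes. Neither symbol is in the deposited tables. The Hadhb values are therefore less certain than those of Hadha, of whose windows 0.655% are shared, with the overlapping gene Garem2.

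The matrix enzymes for shorter chains held the largest difference of the 10 genes. Acaa2, which encodes the mitochondrial 3-ketoacyl-CoA thiolase, was at 1595 FPKM in the control and 269 FPKM in the csMed1-/- library, 5.93-fold lower (log2 ratio -2.57). In 2.91% of all genes tested the ratio was lower still. Echs1 encodes the short-chain enoyl-CoA hydratase and lies on chromosome 7 (minus strand, 140105710 to 140116476) with 8 exons. It was at 503 FPKM in the control and 125 FPKM in the csMed1-/- library, 4.02-fold lower. Hadh encodes the hydroxyacyl-CoA dehydrogenase of medium and short chains and lies on chromosome 3 (minus strand, 131233419 to 131272101), also with 8 exons. It was at 534 FPKM in the control and 144 FPKM in the csMed1-/- library, 3.70-fold lower.

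Levels of the soluble enzymes were also set against those of trifunctional protein within each library. The Hadh to Hadha ratio of FPKM was 0.990 in the control and 1.02 in the csMed1-/- library, and that of Echs1 to Hadha was 0.933 and 0.888. For the thiolases, the ratio of Acaa2 to Hadhb FPKM was 1.27 in the control and 0.722 in the csMed1-/- library, so that Acaa2 was above Hadhb in one library and below it in the other. None of the 50-base windows of Echs1, Hadh or Acaa2 occurs in an annotated transcript of another gene.

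The auxiliary enzymes of unsaturated fatty acid oxidation differed from each other. Eci1, the Δ3,Δ2-enoyl-CoA isomerase gene on chromosome 17 (plus strand, 24426641 to 24439348), was at 430 FPKM in the control and 94.3 FPKM in the csMed1-/- library. This 4.55-fold difference was the largest of the 10 after that of Acaa2. Decr1 encodes the mitochondrial 2,4-dienoyl-CoA reductase and lies on chromosome 4 (minus strand, 15917240 to 15945507) with 10 exons. It was at 233 FPKM in the control and 205 FPKM in the csMed1-/- library, a ratio of 0.880 (log2 ratio -0.19). Of all genes tested, 45.2% had a lower ratio than Decr1, which places it near the middle of the distribution, whereas between 2.91% and 8.40% had a lower ratio than each of the 9 other members.

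In level, Decr1 was the eighth-ranking of the members in control and the fourth-ranking in csMed1-/- heart. The ratio of Decr1 to Eci1 FPKM was 0.543 in the control and 2.18 in the csMed1-/- library. Its transcript shares none of its 50-base windows with another annotated gene, and 2.67% of the Eci1 windows are shared.

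**Figure D2:**
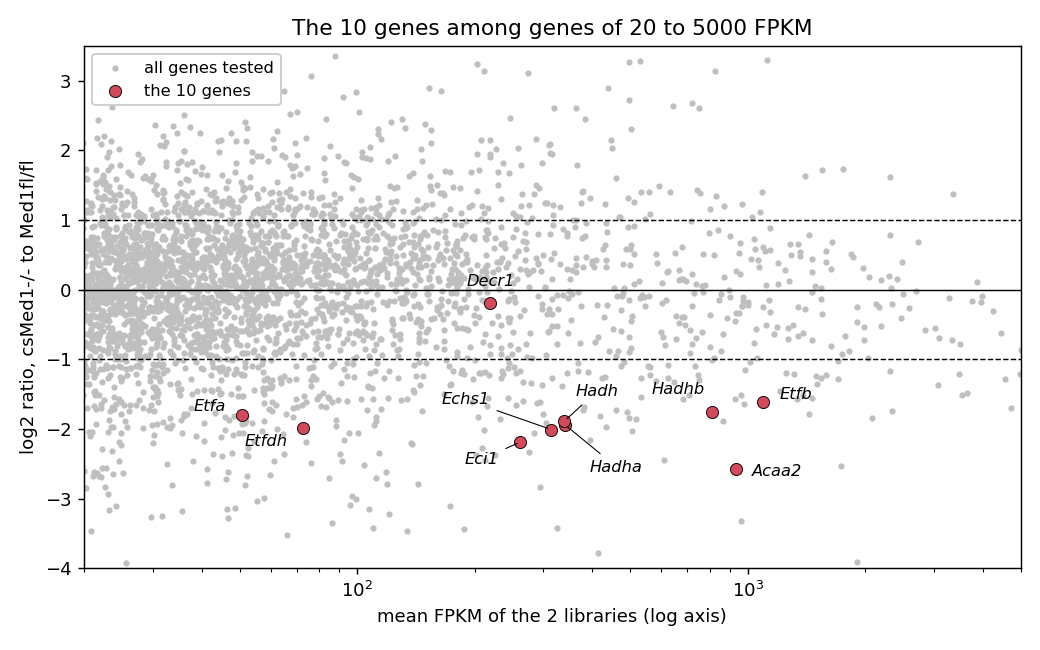
Log2 ratio of csMed1-/- to control FPKM against the mean FPKM of the 2 libraries (log axis) for the 3350 genes in the range drawn (grey) and the 10 members (red), with dashed lines at 2-fold. Decr1 lies at a log2 ratio of -0.19 among the bulk of the genes, and the 9 others lie between -2.57 and -1.62.

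The genes of the ETF system were lower by similar factors at widely different levels. Etfb, on chromosome 7 (plus strand, 43444083 to 43457800) with 6 exons, encodes the β subunit of ETF. It had the highest FPKM of the 10 genes in each library, 1655 in control and 539 in csMed1-/- heart, 3.07-fold lower. Etfa, on chromosome 9 (minus strand, 55454508 to 55512243) with 12 exons, encodes the α subunit. It had the lowest FPKM of the 10 in each library, 78.7 in control and 22.7 in csMed1-/- heart, 3.46-fold lower. Etfdh, on chromosome 3 (minus strand, 79603788 to 79629500) with 13 exons, was at 116 FPKM in the control and 29.3 FPKM in the csMed1-/- library, 3.97-fold lower.

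Although the ETF subunits form a dimer of one each, the FPKM of Etfb was 21.0 times that of Etfa in control and 23.7 times in csMed1-/- heart. The Etfdh to Etfa ratio was 1.48 in the control and 1.29 in the csMed1-/- library. Of the 50-base windows of Etfb, 67.3% also occur in Gm45233, a protein-coding locus that overlaps Etfb on the same strand in GENCODE, and 4.02% of the Etfa windows occur in the processed pseudogene Gm15285. Neither is in the deposited tables, and the part of shared windows in the gap between Etfa and Etfb was not tested.

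The order of the members by level was largely kept between the libraries. In control it ran from Etfb, Acaa2 and Hadhb at 1254 FPKM or more, through Hadha, Hadh, Echs1 and Eci1 between 430 and 540 FPKM, to Decr1, Etfdh and Etfa. In csMed1-/- heart Hadhb stood above Acaa2, Hadh above Hadha, and Decr1 above all members but Etfb, Hadhb and Acaa2. Without replicates, no spread is available to say which neighbours in this order differ.

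The members were set beside the acyl-CoA dehydrogenases, which catalyse the first step and donate electrons to ETF. All 12 had a lower FPKM in csMed1-/- heart, 6 of them by more than 2-fold, with a median log2 ratio of -0.88. Acadsb had the highest ratio of the list, at 2.24 and 2.21 FPKM. Acadm, the medium-chain enzyme, was at 251 FPKM in the control and 36.4 FPKM in the csMed1-/- library, a larger fold (6.88) than that of any member. Acads, the short-chain enzyme that precedes Echs1 and Hadh on the same substrates, was at 330 and 300 FPKM, 1.10-fold lower, where Echs1 and Hadh were 4.02-fold and 3.70-fold lower. Acadvl, the very-long-chain enzyme that precedes trifunctional protein, was at 771 and 356 FPKM (2.17-fold lower), and Acadl at 372 and 245 FPKM (1.52-fold lower).

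Other mitochondrial enzymes of the same reaction types were lower too. Of 11 listed genes 10 passed the filter on low values, 10 of them had a lower FPKM and 8 were lower by more than 2-fold, with a median log2 ratio of -1.51. The lowest ratio was that of Echdc3, at 40.2 and 8.82 FPKM. Echdc1, at 0.256 and 0.0644 FPKM, did not pass. Ech1, the dienoyl-CoA isomerase gene, stood above every member at 3256 FPKM in the control and 910 FPKM in the csMed1-/- library (3.58-fold lower). Acat1, the acetoacetyl-CoA thiolase that also takes part in ketone body use, was at 154 and 36.9 FPKM (4.18-fold lower). Eci2, whose isomerase is found in mitochondria and peroxisomes, was at 150 and 65.6 FPKM, 2.29-fold lower, where Eci1 was 4.55-fold lower. Hsd17b10 was within 2-fold, at 283 and 177 FPKM.

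The peroxisomal counterparts of the members had ratios nearer to 1 and lower levels. Of 15 listed genes 13 passed the filter, and 3 of these were lower by more than 2-fold, 23.1% of those tested, with a median log2 ratio of -0.77. Acaa1a, the peroxisomal thiolase gene, was at 80.2 FPKM in the control and 42.6 FPKM in the csMed1-/- library (1.88-fold lower), where Acaa2 was 5.93-fold lower. Hsd17b4, the peroxisomal D-bifunctional enzyme, was at 35.9 and 10.7 FPKM (3.35-fold lower), and Ehhadh, the L-bifunctional enzyme, at 3.49 and 1.27 FPKM (2.75-fold lower). Decr2, the peroxisomal dienoyl-CoA reductase gene, was within 2-fold like Decr1, at 11.9 and 8.27 FPKM. Acox3 had the highest ratio of the list, at 10.7 and 16.7 FPKM.

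Upstream of the spiral, 6 of 7 genes of the carnitine shuttle, which brings acyl groups into the matrix, had a row of their own. Of these 4 had a lower FPKM, 3 by more than 2-fold, and the median log2 ratio was -0.94, from -2.07 (Slc22a5, a carnitine transporter gene) to 0.48 (Cpt1c). The seventh, Cpt1b, the muscle form of the outer-membrane transferase, shares a row with Chkb, and this row was at 539 and 364 FPKM (1.48-fold lower). Cpt2, the inner-membrane transferase, was at 234 and 110 FPKM. Downstream of Etfdh, all 9 genes of ubiquinol-cytochrome c reductase had a lower FPKM and 4 were lower by more than 2-fold, with a median log2 ratio of -0.92 and a range from -1.26 (Uqcrc1) to -0.07 (Uqcr10). The acetyl-CoA produced by the thiolases enters the tricarboxylic acid cycle, of whose 17 genes 14 were lower by more than 2-fold, with a median log2 ratio of -1.54 from -2.44 (Cs, citrate synthase) to -0.26 (Mdh2, malate dehydrogenase). The difference between these lists and the 10 members was not tested, since the libraries have no replicates.

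ETF needs flavin adenine dinucleotide, and of 9 symbols listed for flavin supply and for modifiers of ETF 5 had a row of their own and 4 of these passed the filter. Lyrm5, whose product removes the flavin from ETF, was at 10.4 FPKM in the control and 2.35 FPKM in the csMed1-/- library, 4.43-fold lower. Slc52a2, a riboflavin transporter gene, was at 4.66 and 10.6 FPKM, higher by 2.27-fold, and Slc52a3 was at 1.60 and 2.92 FPKM. Rfk, riboflavin kinase, was at 16.2 and 9.64 FPKM. The 4 genes thus had ratios on both sides of 1, at low levels. Flad1, which encodes the enzyme that makes flavin adenine dinucleotide, shares a row with Lenep, and this row was at 50.8 and 18.8 FPKM (2.71-fold lower).

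**Figure D3:**
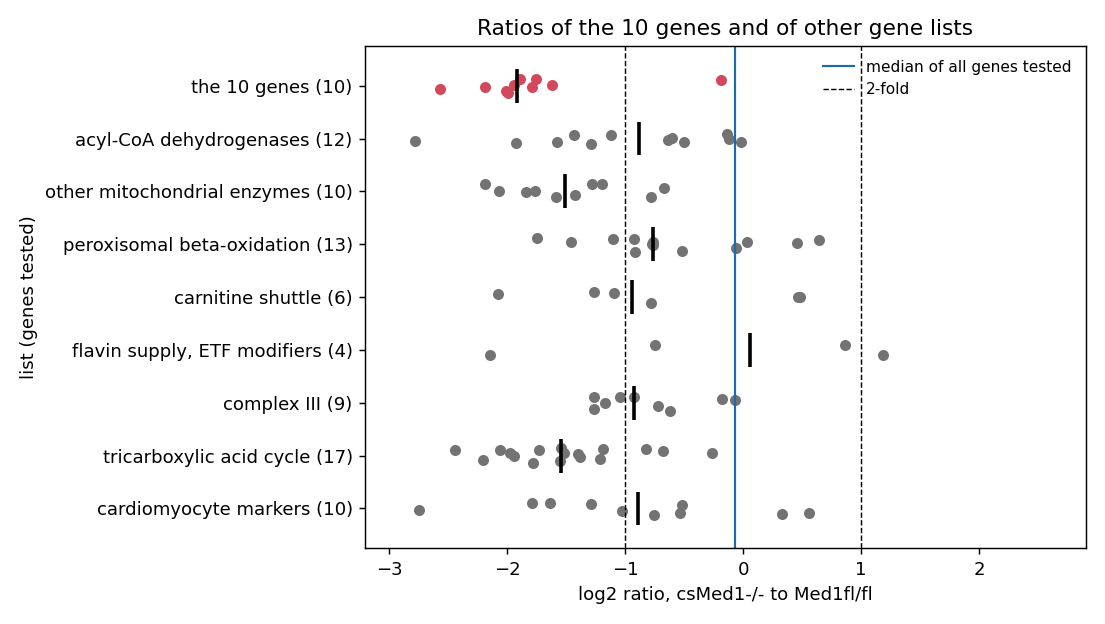
Log2 ratio of csMed1-/- to control FPKM for each gene tested (points) of the 10 members (red) and of 8 other lists (grey), with black bars at the list medians, a blue line at the median of all genes tested and dashed lines at 2-fold. The members' median of -1.91 lies below those of the tricarboxylic acid cycle genes (-1.54), the other mitochondrial enzymes (-1.51) and the cardiomyocyte markers (-0.89).

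Some markers of heart cell types also differed between the 2 libraries. Of 12 cardiomyocyte marker genes 11 had a row of their own and 10 passed the filter, and 8 of these were lower in csMed1-/- heart, 5 by more than 2-fold. Their log2 ratios ran from -2.74 (Tnni3, cardiac troponin I) to 0.56 (Actn2, α-actinin 2), with a median of -0.89. Actc1, cardiac α-actin, was listed at 0 in control and at 9189 FPKM in csMed1-/- heart, and the row shared by Myh6 and Myh7, the cardiac myosin heavy chain genes, at 0 and 647 FPKM, so a 0 in these tables can be a failed estimate. Without Actc1 the list summed to 61024 FPKM in the control and 29283 FPKM in the csMed1-/- library.

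Markers of the other heart cells did not share one direction. The 9 fibroblast markers summed to 545 and 1206 FPKM, with 4 higher and 2 lower by more than 2-fold and log2 ratios from -1.66 (Dpt) to 4.13 (Postn). The 8 endothelial markers summed to 690 and 546 FPKM, with 3 lower and 0 higher by more than 2-fold, from -1.90 (Tek) to 0.44 (Egfl7). Of the 8 macrophage markers found, which summed to 348 and 399 FPKM, 7 were tested and all 7 lay within 2-fold, from -0.91 (Emr1) to 0.73 (Fcer1g). The 6 smooth muscle and pericyte markers had a median log2 ratio of 0.28, from -1.04 (Myh11) to 1.91 (Tagln), with 2 higher and 1 lower by more than 2-fold. Their sum, 675 and 496 FPKM, had the opposite direction to this median and was mostly Acta2, at 573 and 310 FPKM. Of the erythroid markers, Alas2 was at 35.8 and 82.1 FPKM. The globin genes stand on rows that name several genes, and the row of Hbb-b1 and Hbb-b2 was at 7011 and 12718 FPKM and the 2 rows of Hba-a1 and Hba-a2 together at 8894 and 12084 FPKM. The 6 adipocyte markers summed to 0 and 0.0271 FPKM.

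With ratios centred on the median of the cardiomyocyte markers, a setting chosen after seeing the data, 5 of the 10 genes (Acaa2, Eci1, Echs1, Etfdh and Hadha) were still lower by more than 2-fold, beside 5.91% of all genes tested. Of all genes past 2-fold 12.3% were then lower, against 57.0% without the centring. Under it the members' median log2 ratio was -1.02, Hadh, Hadhb (-0.86), Etfa (-0.90) and Etfb (-0.73) lay within 2-fold, and Decr1 had a log2 ratio of 0.71, above 0. The part of cell composition in the members' ratios was not tested.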

How the data were processed

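Polyadenylated heart RNA, pooled from 5 mice per genotype, was made into directional 50-base single-end libraries. TopHat (v2.0.8b) alignment to mm10 was followed by Cufflinks (v2.1.1), from which the authors obtained the deposited FPKM of known genes. The submitters' processing notes also name Cuffdiff 2.1.1, which the paper used for differential expression. They name STAR 2.4.0h, Bowtie2 and DESeq2 without a role. Which program gave the deposited FPKM was not established here. Library scaling and strand use in counting are not given in the sources used here, and read counts are not analysed here, so depth is unknown and no error can be given for a value. The tables have 23424 rows, and rows sharing a symbol were summed. Symbols were matched exactly, so a row that names several genes was given as its own row and entered no list count; no member stands on such a row. Ratios are plain, without a pseudocount, for genes with a value above 0 in each library that reached 1 FPKM in at least one. The 2-fold threshold is that of the study, which also applied a false discovery rate cutoff to its differences. No test was made here with 1 library per genotype, so the counts of genes are not comparable with those of the study. Positions, transcripts and shared 50-base windows (exact matches, both strands, annotated transcripts) came from GENCODE M21 (GRCm38), and promoters from RefSeq (GRCm38.p6).

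The named genes are the 10 members, Med1, and, of each list, those with the lowest and highest ratio or whose role touches a member. Acta2 and, among the receptors and PPAR targets, further genes past 2-fold were chosen after their values were seen. The members and lists were chosen with earlier results of these data known. The computation was tested on simulated data. Python 3.11.15, numpy 2.4.6, pandas 2.3.3 and matplotlib 3.10.9 were used. Alternatives covered pseudocounts, filters, scalings, the threshold and the choice of rows.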

Additional observations from a re-analysis of the deposited data

How the results depend on the processing

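Under 10 of the 11 alternatives that kept the 2-fold threshold, the same 9 genes, all but Decr1, passed 2-fold in the lower direction. The filters and the choice of rows could not change these calls. Each member stood on 1 row and was at 22.7 FPKM or more in both libraries. The pseudocounts, small beside such levels, could hardly change them, which leaves the scalings. Centring on the cardiomyocyte markers, a scaling chosen after seeing the data, was the exception among the 11. It left 5 genes, lowered the count of all genes that were lower from 1886 to 620 and raised the count of higher genes from 1423 to 4415. It took Decr1 to a log2 ratio of 0.71. Across these 11 alternatives the members' median log2 ratio lay between -1.96 and -1.02. A 4-fold threshold left 3 of the 10 genes (Acaa2, Eci1 and Echs1), with the median of -1.91 inside 4-fold, and 539 lower and 453 higher genes among all tested. Without a filter beyond a value above 0 in both libraries, 3182 genes were lower and 2504 higher of 15930, and with 10 FPKM in one library 885 were lower and 821 higher of 5426. Scaling to the sum of all FPKM gave 1629 lower and 1677 higher genes. The ratio of Etfa to Etfb in csMed1-/- heart, 0.0422, was 0.0439 with a pseudocount of 1 FPKM. The choice of rows could not change it, since each of the 2 genes stood on 1 row. No paired analysis was possible because each genotype has 1 library, and no library could be left out for the same reason.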

Other observations

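Nuclear receptors and coactivators known to regulate fatty acid oxidation genes, Med1 among them, were described in the same 2 libraries. Of 13 listed symbols 12 had a row of their own and 11 passed the filter on low values. Of these 10 had a lower FPKM in csMed1-/- heart, 6 by more than 2-fold, and the median log2 ratio was -1.05, from -3.04 (Med1) to 0.01 (Rxrb). Med1 is the deleted gene, so its lower value follows from the design, yet it is counted in the 10, the 6 and the median. Without Med1 the median would lie between the log2 ratios of Esrra (-1.05) and Rxra (-0.60), the latter within 2-fold. The 5 genes besides Med1 that were lower by more than 2-fold are named because of their values. Ppara, the receptor gene best known for control of fatty acid oxidation, was at 12.4 and 1.66 FPKM in control and csMed1-/- heart (7.46-fold lower). Rxrg, a retinoid X receptor gene, was 5.13-fold lower from 71.7 FPKM in control. The coactivator genes Ppargc1a and Ppargc1b were 4.63-fold and 2.77-fold lower, from 4.41 and 4.87 FPKM. Esrra, the estrogen-related receptor α gene, was at 127 and 61.4 FPKM.

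Genes known from textbooks as targets of PPAR, 11 in the list, were mostly lower. In csMed1-/- heart 9 had a lower FPKM, 4 by more than 2-fold, and 1 was higher by more than 2-fold, with a median log2 ratio of -0.82. Lpl, lipoprotein lipase, had the lowest ratio at 129 and 23.0 FPKM (5.61-fold lower). Angptl4, which encodes an inhibitor of that enzyme, had the highest at 10.7 and 102 FPKM. Also past 2-fold, and named because of their values, were Fabp3 (3.26-fold lower) and Ucp3 (2.78-fold lower). These values have no replicates and no test.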
